A study of Mus musculus with 16 samples.

Results

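The 8 E0771 tumours of the series, 3 classed as hypoxic and 5 as normoxic by the labels, were compared across all genes of a fixed immune panel. They were chosen by their labels alone, as the columns of E0771 tumours in the table of 16 tumours, and the other 8 tumours were of the line MC38. E0771 cells derive from a breast cancer of the mouse, and MC38 cells from a colorectal one. The hypoxic group held the tumours of mice 12, 22 and 55, and the normoxic group those of mice 4, 17, 38, 65 and 71. Each tumour was grown from cells implanted with matrigel at the right shoulder of 1 mouse. All of these mice, the normoxic ones too, had been given immunotherapy with PD-1 and CTLA-4, both brakes on T cells, as targets. Excision followed imaging at day 5, and the tissue was stored in RNAlater. Hypoxia was imaged by PET with 18F-FMISO, which accumulates where oxygen is scarce. Tracer uptake, the strain, age and sex of the mice, and untreated tumours were not analysed here. The readout was NanoString's mouse PanCancer Immune panel, whose colour-coded probes bind and count transcripts without amplification. Of its 770 genes, 712 were tested. These had a mean over all 16 tumours of at least 24.0, a level set on the negative-control probes.

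Cells short of oxygen stabilise hypoxia-inducible factors, transcription factors that switch on genes of glycolysis, vessel growth and adenosine production. Hypoxic regions of solid tumours are often poor in T cells and hold myeloid cells and regulatory T cells that restrain immunity. Adenosine made from extracellular ATP by the enzymes of Entpd1 and Nt5e acts through the receptor of Adora2a to dampen T cells. In bulk tumour RNA, fewer cells of a type and less RNA per cell cannot be told apart.

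No gene passed the test between hypoxic and normoxic E0771 tumours. At an adjusted p under 0.05 (limma, Benjamini-Hochberg over 712 genes) the count was 0 (0%), and the smallest adjusted p was 0.62. At an unadjusted p under 0.05, 35 genes were lower in hypoxic tumours (4.92% of those tested) and 10 were higher (1.4%). The median difference of all genes was -0.36 on the log2 scale, and 71.3% of genes were negative. It was -0.13 without hypoxic 12, -0.71 without hypoxic 22 and -0.27 without hypoxic 55. The differences were imprecise, with a median 95% half-width of 1.20 log2 units. For 97 genes the interval lay within 1 log2 unit of 0 on both sides. A difference of at least 1 log2 unit was seen for 120 genes, 117 lower and 3 higher. The count that passed depended on the scaling. Scaling by positive-control probes keeps the depth gap described next and adds the difference between tumours in these probes. Under it 127 genes passed, all lower, and the median was -1.51.

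Depth differed between the tumours before the deposited scaling. The estimated gene counts were 192035, 180274 and 629162 in hypoxic 12, 22 and 55, against 719246, 512676, 805934, 315231 and 675457 in normoxic 4, 17, 38, 65 and 71. The hypoxic mean was 333824 ± 255838 and the normoxic mean 605709 ± 194215 (SD, n = 3 and 5; exact two-sided permutation p = 0.107, with 0.0357 the smallest possible). Scaling multiplied the background too, so that the negative probes averaged 17.4, 24.6 and 6.07 in the hypoxic tumours, against 3.71, 6.58, 4.46, 15.6 and 5.59 in the normoxic ones. In hypoxic 12, 134 tested genes lay at or under this level, and the other tumours had 0 to 46 such genes. The 20 housekeeping genes that set the scale had differences between -0.61 (Sdha) and 0.57 (Polr1b), with a median of 0.00. Depth was lower and background higher in the hypoxic tumours on average, but hypoxic 55 and normoxic 65 went the other way. The part of depth and background in the results was not tested.

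The genes in which the groups did not overlap were few. All 3 hypoxic tumours lay below all 5 normoxic ones for 4 genes (0.562% of those tested), Igf2r, Cfp, Foxj1 and Lta. They lay above all of them for 1 gene (0.14%), Ifi35. Igf2r encodes the mannose 6-phosphate receptor, which carries lysosomal enzymes and clears IGF2, and Cfp encodes properdin, which stabilises the alternative complement convertase. Ifi35 is an interferon-induced gene. The promoter windows of these 3 genes are given because their groups separated at levels above background, and a core of the hypoxia response element, ACGTG, was searched in them on both strands. The windows run from 250 bases before to 50 after the gene start and come from RefSeq (GRCm38.p6), with the core or its complement in capitals.
Igf2r (chr17:12769657-12769956, minus strand): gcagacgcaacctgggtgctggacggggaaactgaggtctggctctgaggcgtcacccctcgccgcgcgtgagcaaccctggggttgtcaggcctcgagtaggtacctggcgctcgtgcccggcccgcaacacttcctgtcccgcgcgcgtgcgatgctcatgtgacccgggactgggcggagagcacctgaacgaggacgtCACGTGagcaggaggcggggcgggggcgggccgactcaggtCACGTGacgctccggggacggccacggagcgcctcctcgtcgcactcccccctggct
Cfp (chrX:20931506-20931805, minus strand): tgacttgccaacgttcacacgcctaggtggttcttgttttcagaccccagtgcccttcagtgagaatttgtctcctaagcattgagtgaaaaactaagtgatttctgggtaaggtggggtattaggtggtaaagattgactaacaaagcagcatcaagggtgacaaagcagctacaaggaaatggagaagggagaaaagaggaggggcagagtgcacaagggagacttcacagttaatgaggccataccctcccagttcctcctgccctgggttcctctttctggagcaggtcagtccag
Ifi35 (chr11:101448162-101448461, plus strand): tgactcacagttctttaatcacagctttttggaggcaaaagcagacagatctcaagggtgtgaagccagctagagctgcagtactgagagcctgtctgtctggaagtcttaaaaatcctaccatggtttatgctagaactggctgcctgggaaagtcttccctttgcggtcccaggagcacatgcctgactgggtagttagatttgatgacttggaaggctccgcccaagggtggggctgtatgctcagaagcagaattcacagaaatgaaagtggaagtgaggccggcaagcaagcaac
The Igf2r window held the core 4 times, at 2 places where CACGTG reads the same on both strands and so counts once per strand. The windows of Cfp, Ifi35 and Lta held it 0 times. Of 32851 RefSeq windows of this length 19.6% held it, as did 20.6% of the 535 tested genes with a window. Such matches describe letters only.

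Igf2r stood at 73.0, 91.5 and 79.4 in hypoxic tumours 12, 22 and 55, against 153, 99.9, 337, 220.3 and 239 in normoxic 4, 17, 38, 65 and 71 (in normalized signal, as are all levels below, in this order of tumours). The nearest values were those of hypoxic 22 and normoxic 17, and the difference was -1.25 ± 0.39 (log2 ± SE, unadjusted p = 0.00564). Cfp stood at 347, 215 and 424 in hypoxic tumours, against 642, 449.6, 1618, 2119 and 1329 in normoxic ones. Normoxic 17 again lay next to the hypoxic tumours, and the difference was -1.74 ± 0.61. Ifi35 stood at 1049, 1179 and 1114 in hypoxic tumours, against 656, 971, 555, 889 and 794 in normoxic ones, a difference of 0.55 ± 0.37. Lta, the cytokine lymphotoxin alpha, stood at 15.96, 14.1 and 19.3 in hypoxic tumours, against 37.2, 20.0, 38.4, 47.8 and 33.0 in normoxic ones. It was at or under the negative probes of its own tumour in 2 of 3 hypoxic and 0 of 5 normoxic tumours. Foxj1, a transcription factor of ciliated cells, was under them in 3 of 3 hypoxic and 1 of 5 normoxic tumours, so its order there is not a measured level.

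Among the 12 lower genes of smallest p, the surface sialomucin gene Cd34, a marker of vessel cells and blood progenitors, came first. Its levels were 171, 338 and 216 in hypoxic tumours, against 1169, 241, 1835, 1160.2 and 608 in normoxic ones. Normoxic 17 lay among the hypoxic tumours and the other 4 normoxic tumours lay above all of them. The difference was -1.81 ± 0.48 (95% interval -2.83 to -0.79; unadjusted p = 0.00159, adjusted p = 0.62). Without normoxic 17 it was -2.25 and passed alone of all genes (adjusted p = 0.0095). The summed signal of 5 other endothelial genes (Pecam1, Cdh5, Tek, Kdr and Vwf) was 226 to 535 in hypoxic and 281 to 925 in normoxic tumours, so the groups overlapped.

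Chemokines of dendritic cells and T cells made up another group of lower genes. Ccl17 and Ccl22, ligands of CCR4 that draw regulatory and type 2 helper T cells, differed by -2.49 ± 0.81 and -1.70 ± 0.68. Ccl17 stood at 27.4, 28.2 and 61.7 in hypoxic tumours, against 125, 60.9, 415, 765 and 161 in normoxic ones, with hypoxic 55 just above normoxic 17. Ccl22 stood at 43.3, 109 and 80.2 in hypoxic tumours, against 289, 58.1, 569.8, 276 and 289 in normoxic ones. Ccl19 and its receptor gene Ccr7, which guide cells to lymph nodes, differed by -1.75 ± 0.70 and -1.32 ± 0.51. Ccl19 stood at 11.4, 59.8 and 17.0 in hypoxic tumours, against 71.3, 30.9, 144, 133 and 72.4 in normoxic ones, and its level in hypoxic 12 was under the negative probes there. Ccr7 stood at 52.5, 106 and 91.0 in hypoxic tumours, against 248, 89.9, 248, 236 and 246 in normoxic ones. In each of these 4 genes normoxic 17 was the lowest normoxic tumour and lay within the hypoxic range.

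The other lower genes of smallest p belong to myeloid cells, complement and the cell surface. Fcgr3, a receptor for IgG on macrophages and NK cells, stood at 68.4, 134 and 468 in hypoxic tumours, against 508, 373, 1581, 974 and 1229.9 in normoxic ones (-2.32 ± 0.77). Spp1, which encodes the secreted protein osteopontin, stood at 483, 880.0 and 1563 in hypoxic tumours, against 2673, 1427, 1796, 2479.6 and 1501 in normoxic ones (-1.13 ± 0.40). Only hypoxic 55 lay within the normoxic range of Spp1. Jaml, a leukocyte adhesion gene, stood at 29.6, 123 and 109 in hypoxic tumours, against 152, 102, 424, 273 and 352 in normoxic ones (-1.62 ± 0.59). Cd55, whose product breaks up complement convertases, stood at 11.4, 59.8 and 37.0 in hypoxic tumours, against 200.1, 25.4, 326, 169.9 and 80.9 in normoxic ones (-1.97 ± 0.78). Its level in hypoxic 12 was under the negative probes there. Cmah, an enzyme gene of sialic acid synthesis, stood at 18.2, 49.3 and 14.7 in hypoxic tumours, against 94.1, 24.5, 311, 196 and 61.8 in normoxic ones (-2.0 ± 0.80). For both Cd55 and Cmah, hypoxic 22 was the highest of the hypoxic group and normoxic 17 the lowest of the normoxic one.

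The 11 higher genes of smallest p reported here differed by 0.58 to 1.17. All 11 were negative under scaling by positive-control probes (-0.63 to -0.04), which lowers nearly every gene. All 11 stayed positive in the other 22 alternatives, some of which cannot change the difference, at 1.01 to 1.59 when centred on the median gene. Mfge8, a bridge between dying cells and phagocytes, stood at 917, 866 and 537 in hypoxic tumours, against 384, 590.3, 273, 406 and 527 in normoxic ones (0.84 ± 0.32, unadjusted p = 0.0173). Dusp4, a phosphatase gene that curbs MAP kinases, stood at 1190.4, 1056 and 902 in hypoxic tumours, against 511, 954, 228, 552 and 647 in normoxic ones (0.99 ± 0.40). The growth-promoting transcription factor gene Myc stood at 6463, 3897 and 4117 in hypoxic tumours, against 1801, 5024, 818, 2347 and 2846 in normoxic ones (1.11 ± 0.48). In Mfge8 hypoxic 55 lay below normoxic 17, in Dusp4 it lay just below it, and in Myc hypoxic 22 and 55 did. Smad3, which relays TGF-beta signals, differed by 0.81 ± 0.33. The basement membrane collagen gene Col4a1 (0.99 ± 0.43), the growth factor receptor gene Igf1r (0.88 ± 0.39) and the cytokine signalling inhibitor Socs3 (1.17 ± 0.53) were each highest in hypoxic 22. Col4a1 stood at 1263, 3629 and 822 in hypoxic tumours, against 823, 821, 573, 1144 and 674 in normoxic ones. Mif, a cytokine gene that hypoxia-inducible factors are known to act on, stood at 23072, 22694 and 13082 in hypoxic tumours, against 16025, 13812, 8436, 12526 and 9923 in normoxic ones (0.68 ± 0.30). The NF-kB subunit gene Rela (0.83 ± 0.39) was the last of them at an unadjusted p under 0.05. Anp32b (0.58 ± 0.28, unadjusted p = 0.0537 in limma) and the interleukin-1 signalling kinase gene Irak2 (0.93 ± 0.48) lay beyond it.

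**Figure D1:**
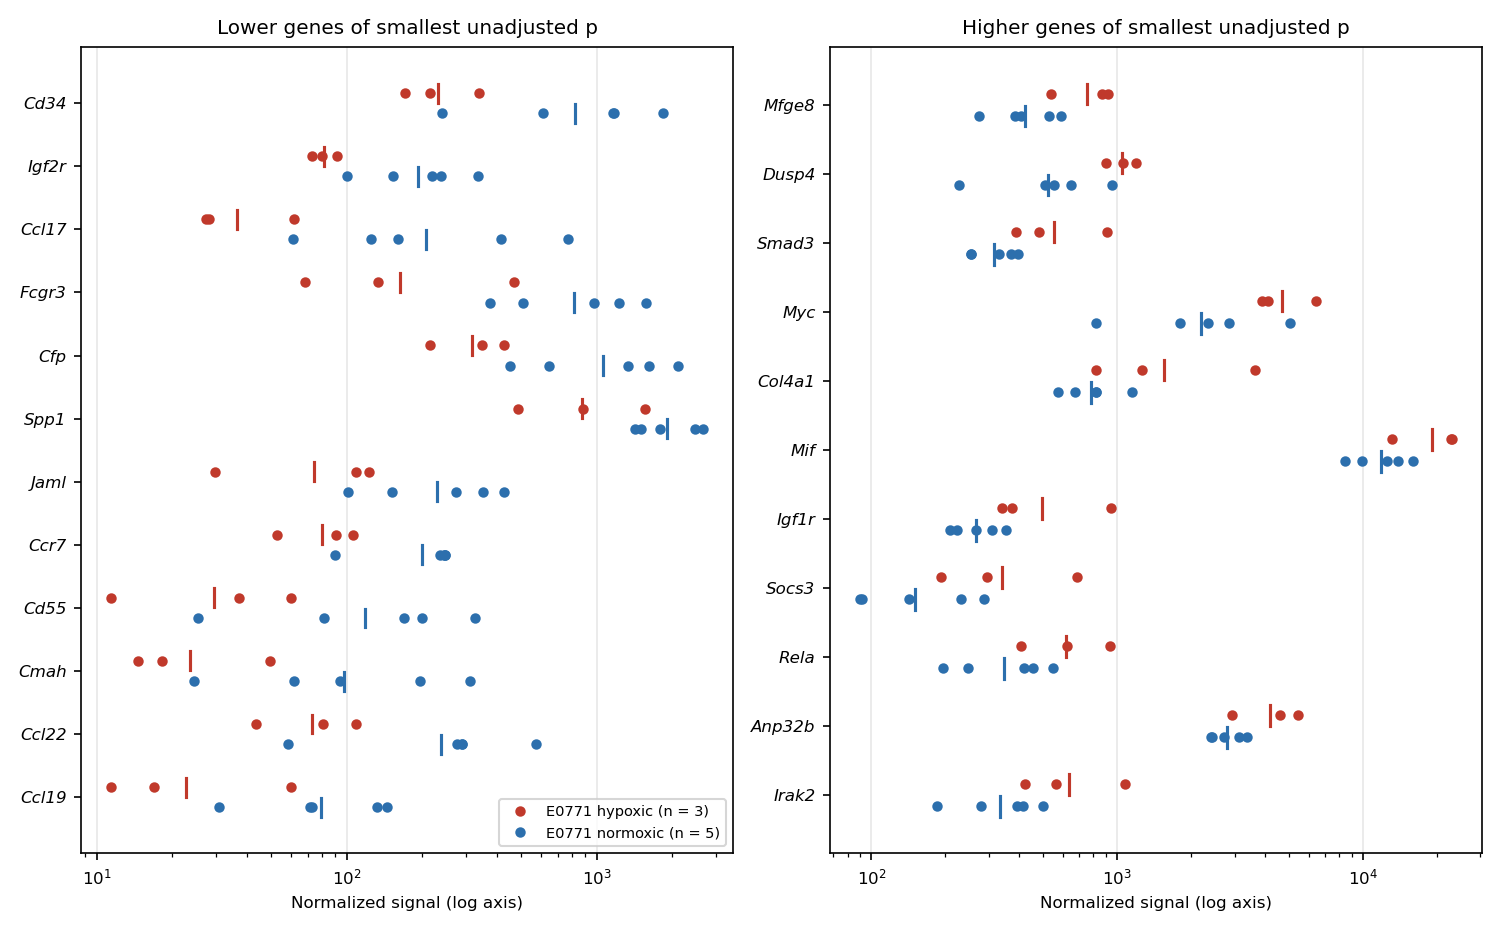
Normalized signal (log axis) of the 12 lower and 11 higher genes of smallest unadjusted p, with 1 point per tumour, hypoxic above normoxic, and a bar at the mean of log2(value + 1). The groups overlap in all of them but Igf2r and Cfp, and no gene passed the test.

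In the plot of these 23 genes the groups overlapped in 10 of the 12 lower and 11 of the 11 higher ones. Normoxic 17 was the lowest normoxic tumour in all 12 lower genes. The share of all genes tested in which it was lowest was not counted. Its median log2 level over all genes, relative to the normoxic mean, was -0.54. With all tumours 45 genes stood at an unadjusted p under 0.05. Leaving out 1 tumour raised this to 101 without hypoxic 22, 99 without normoxic 17, 82 without normoxic 4 and 57 without hypoxic 55. It lowered it to 9 without hypoxic 12, 10 without normoxic 38, 26 without normoxic 71 and 33 without normoxic 65.

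Genes of the hypoxia response did not separate the groups. Hif1a, which encodes the oxygen-regulated subunit of hypoxia-inducible factor 1 and is controlled mainly at the protein level, stood at 1729, 4354 and 4549 in hypoxic tumours, against 2925, 4078, 2999.7, 2801 and 4928 in normoxic ones (-0.09 ± 0.43). Vegfa, the hypoxia-inducible vascular growth factor gene, stood at 292, 341 and 390.2 in hypoxic tumours, against 309, 501, 324, 220.3 and 498 in normoxic ones. The hypoxic values of Vegfa lay inside the normoxic range, and the difference was -0.06 ± 0.42 (95% interval -0.95 to 0.83). Angpt2, a vessel-destabilising ligand, was at -0.05 ± 0.48. Of the adenosine genes, Entpd1 was at -1.43 ± 0.65 (unadjusted p = 0.0408), Nt5e at 0.25 ± 0.55 and Adora2a at -0.84 ± 0.66. Entpd1 stood at 43.3, 215 and 190.5 in hypoxic tumours, against 179, 159, 666, 342 and 581 in normoxic ones. The chemokine gene Cxcl12 stood at 95.8, 468 and 180.4 in hypoxic tumours, against 186, 261, 1652, 1136 and 1135 in normoxic ones (-1.66 ± 0.75), and its receptor gene Cxcr4 was at -0.69 ± 0.76. Tgfb1, a cytokine that restrains T cells, was at 0.76 ± 0.51 and Il6 at 0.23 ± 0.70. In all, 0 of the 11 measured genes of the hypoxia list passed, and 8 were negative, as were 71.3% of all genes tested. Their median was -0.09, against -0.36 for all genes. Entpd1, Cxcl12 and Spp1, given above, were lower at an unadjusted p under 0.05, which 4.92% of all genes were. Without hypoxic 12, 22 or 55 the median was 0.05, -0.36 or -0.40. The list's usual glycolysis genes were not analysed here.

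Among 25 genes of general interest to tumour immunity none passed, 22 were negative and 3 positive, where 71.3% of all genes tested were negative. Of the receptors targeted by the treatment, Pdcd1 (PD-1) stood at 47.9, 299 and 147 in hypoxic tumours, against 72.0, 84.5, 362, 412 and 508 in normoxic ones (-0.74 ± 0.67). Ctla4 stood at 50.2, 282 and 107 in hypoxic tumours, against 143, 71.8, 348, 422 and 338 in normoxic ones (-0.93 ± 0.68). In both, hypoxic 12 lay below all normoxic tumours, and hypoxic 22 and 55 lay within a normoxic range whose low values were those of mice 4 and 17. The PD-1 ligand genes Cd274 (-0.25 ± 0.56) and Pdcd1lg2 (-0.44 ± 0.77) and the inhibitory receptor genes Lag3 (-0.16 ± 0.70), Havcr2 (-0.05 ± 0.64) and Tigit (-0.00 ± 0.53) lay closer to 0.

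Cd8a, the co-receptor of cytotoxic T cells, stood at 31.9, 158 and 82.5 in hypoxic tumours, against 36.0, 66.3, 288, 324 and 312 in normoxic ones (-0.97 ± 0.72; 95% interval -2.49 to 0.54). Gzmb, which encodes the killing enzyme granzyme B, stood at 84.4, 70.4 and 218 in hypoxic tumours, against 65.0, 107, 429.8, 469.9 and 418 in normoxic ones (-1.05 ± 0.60). Foxp3, the defining factor of regulatory T cells, stood at 9.12, 35.2 and 13.9 in hypoxic tumours, against 24.6, 15.4, 58.5, 61.1 and 53.2 in normoxic ones (-1.13 ± 0.70). For all 3 genes normoxic 4 and 17 were low and normoxic 38, 65 and 71 high. Cd4 (-0.53 ± 0.65), the pore-forming Prf1 (-0.29 ± 0.50) and Ifng (-0.45 ± 0.65), the interferon gamma gene, did not pass. Foxp3 and Ifng were each at or under the negative probes in 1 hypoxic tumour. The interferon-induced T cell chemokine genes Cxcl9 and Cxcl10 were at -0.37 ± 0.74 and 0.56 ± 0.61.

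Of the myeloid genes, Arg1, an arginine-degrading enzyme, stood at 303, 539 and 1241 in hypoxic tumours, against 211, 979.9, 4071, 1579.6 and 2622 in normoxic ones (-1.13 ± 1.04). The macrophage receptor genes Mrc1 (-0.97 ± 0.82) and Cd163 (-0.74 ± 1.02), the integrin gene Itgam (-0.73 ± 0.56), Nos2 (-0.17 ± 0.51) and the cytokine gene Il10 (-0.08 ± 0.56) did not pass. Il10 was at or under the negative probes in 2 hypoxic tumours. The granule gene S100a8 of neutrophils stood at 75.3, 968 and 81.0 in hypoxic tumours, against 43.6, 66.3, 417, 390.3 and 85.2 in normoxic ones (0.45 ± 0.87), with the highest level of all 8 tumours in hypoxic 22.

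**Figure D2:**
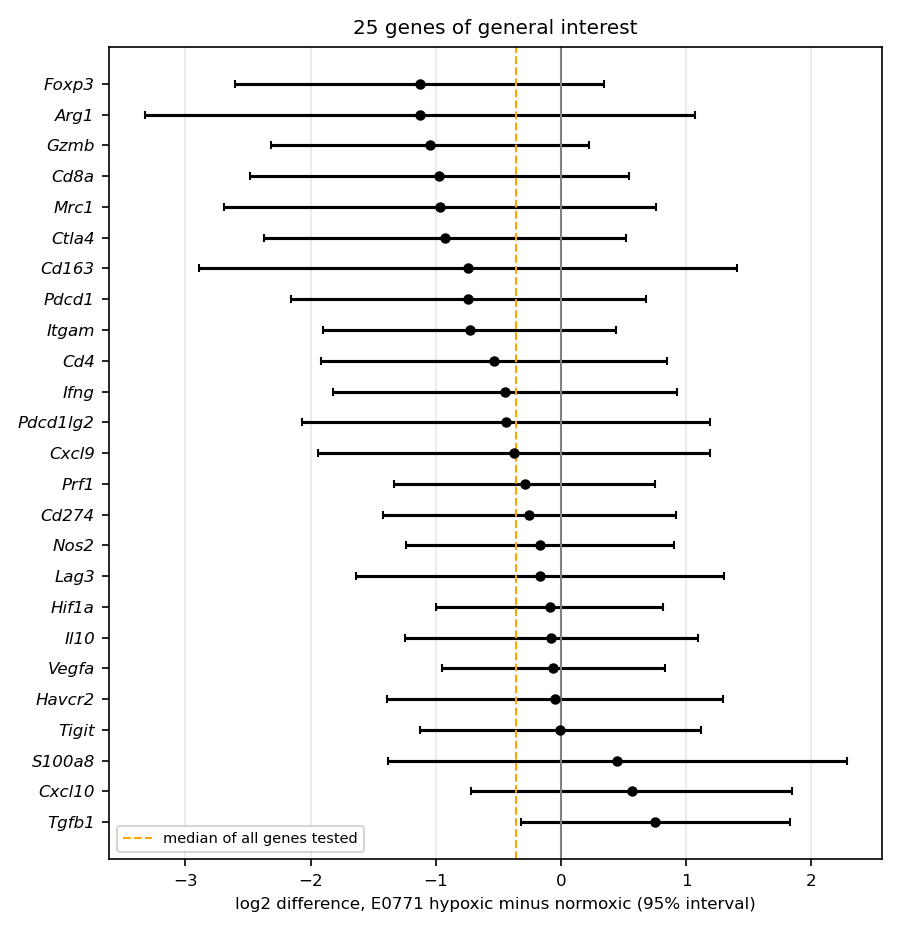
Differences of 25 genes of general interest, E0771 hypoxic minus normoxic on the log2 scale, with 95% intervals from limma (n = 3 and 5), and a dashed line at the median of all genes tested (-0.36). Every interval crosses 0, from Foxp3 (-1.13) to Tgfb1 (0.76).

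The plot of these intervals shows the reach of the data. For 21 of the 25 genes the interval extended below -1, so a loss of 1 log2 unit could not be told from no difference with these tumours.

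The gene lists showed the same lean without a gene that passed. Of 25 lists, 23 had a negative median and 15 a median below that of all genes (-0.36). The list of T cell attracting chemokines had the lowest, with 10 of 12 genes negative, 4 of them at an unadjusted p under 0.05, and a median of -1.25. Over all genes tested 71.3% were negative and 4.92% were lower at that p. Its lowest members were Ccl17 and Ccl19, and its highest were Cxcl11 (0.28) and Cxcl10 (0.56). In the regulatory T cell list 12 of 12 were negative, with a median of -0.92, from the interleukin-2 receptor gene Il2ra (-1.46 ± 0.65) and Entpd1 to Il10 and Tigit. Il2ra was at or under the negative probes in 1 hypoxic tumour and Il10 in 2. In the MHC class II list 9 of 9 were negative with a median of -0.89, from the antigen-presenting chains H2-Eb1 (-1.31 ± 0.71) and H2-Aa (-1.27 ± 0.71) to H2-Ob (-0.26 ± 0.72) and the regulator Ciita (-0.46 ± 0.65).

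Lists of lymphocytes were lower in median as well. The T cell list had 15 of 15 negative genes and a median of -0.70, from Cd3g (-1.47 ± 0.88) and Cd2 (-1.31 ± 0.80) to Cd28 (-0.46 ± 0.60) and Tcf7 (-0.48 ± 0.45). The CD8 and cytotoxic list had 13 of 13 negative and a median of -0.73, with the death ligand gene Fasl (-1.52 ± 0.63) and Cd8b1 (-1.21 ± 0.62) lowest and Gzmm (-0.41 ± 0.81) and Prf1 highest. Fasl was at or under the negative probes in 2 of 3 hypoxic tumours, Cd8b1 in 1, and Gzmm in 2 of 3 hypoxic and 2 of 5 normoxic tumours. The NK cell list had 8 of 11 negative and a median of -0.78, from Klrc2 (-1.41 ± 0.84) and Ncr1 (-1.26 ± 0.57), both NK receptors, to Klra4 (0.32 ± 0.49) and Itga2 (0.64 ± 0.86). The B cell list had 8 of 9 negative and a median of -0.55, but Ms4a1 and Cd79a were at or under the negative probes in 3 of 3 hypoxic tumours. The checkpoint list had 14 of 17 negative and a median of -0.42, from Cd160 (-1.13 ± 0.56) and Ctla4 to Lgals3 (0.29 ± 0.46) and Icosl (0.34 ± 0.48). Cd2, Klrc2, Ncr1 and Cd160 were each at or under the negative probes in 1 hypoxic tumour, and Itga2 in 1 hypoxic and 1 normoxic tumour.

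Myeloid lists were mixed. Of 18 macrophage genes 17 were negative with a median of -0.74, from Adgre1 (-1.41 ± 0.62), the F4/80 antigen, and Cybb (-1.23 ± 0.72), a subunit of the phagocyte oxidase, to Marco (-0.06 ± 0.76) and Cx3cr1 (0.41 ± 0.52). Of 17 dendritic cell genes 16 were negative with a median of -0.74, led by Ccl17 and Ccl22. The neutrophil list had 8 of 16 negative and a median of 0.03, from Fpr2 (-1.01 ± 0.63) and Itgam to Cxcl3 (0.45 ± 0.74) and Cxcl2 (1.22 ± 0.71), a chemokine that draws neutrophils. Without hypoxic 22 the neutrophil median was -0.69. Cxcl2 stood at 25.1, 271 and 17.0 in hypoxic tumours, against 13.9, 9.08, 19.2, 39.8 and 37.3 in normoxic ones. The list of alternatively activated and suppressive myeloid genes had 13 of 19 negative and a median of -0.31, with Tgfb1 and the transcription factor gene Cebpb (0.84 ± 0.48) highest. The mast cell and eosinophil list had 9 of 10 negative and a median of -0.64, from the eosinophil chemokine genes Ccl11 (-1.49 ± 0.77) and Ccl24 (-1.44 ± 1.14) to Prg2 (-0.15 ± 0.83) and Ms4a2 (0.75 ± 0.89). Prg2 was at or under the negative probes in 2 hypoxic and 1 normoxic tumour, and Cxcl3 in 1 of each group.

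The type I interferon and MHC class I lists had medians nearer to 0 than that of all genes. The type I interferon response list had 13 of 26 negative genes and a median of 0.05, from Ifit3 (-1.21 ± 0.53) and Ifitm1 (-0.97 ± 0.53) to Oas3 (0.70 ± 0.45) and Bst2 (0.70 ± 0.42), all antiviral effectors. Bst2, which tethers virus particles to the cell, stood at 6301, 5576 and 7494 in hypoxic tumours, against 2544, 6656, 2450.1, 4577 and 4971 in normoxic ones. Ifit3 stood at 223, 253 and 849.8 in hypoxic tumours, against 646, 663, 1134, 1139 and 769 in normoxic ones, with hypoxic 12 and 22 below all normoxic tumours. The MHC class I list had 9 of 16 negative and a median of -0.11, from Cd1d1 (-0.94 ± 0.64) and H2-T23 (-0.50 ± 0.57) to the peptide-loading genes Tapbp (0.54 ± 0.46) and Tap1 (0.74 ± 0.40). The interferon gamma and Th1 list had 19 of 26 negative and a median of -0.45, from Gbp2b (-1.61 ± 0.80) and the receptor gene Ifngr1 (-1.20 ± 0.49) to Tap1 and Socs1 (0.77 ± 0.46).

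Among soluble mediators and signalling genes, myeloid attracting chemokines had 8 of 14 negative and a median of -0.15, from Ccl9 (-1.64 ± 0.70) and Ccl6 (-1.34 ± 0.64) to Csf1 (0.49 ± 0.39) and Cxcl2. Inflammatory cytokines had 12 of 16 negative and a median of -0.44, from Tnfsf14 (-1.09 ± 0.73) and Il18 (-1.02 ± 0.57) to Il6 and Tnf (0.71 ± 0.58). Tnfsf14 was at or under the negative probes in 1 hypoxic tumour. The NF-kB and Toll-like receptor list had 19 of 33 negative and a median of -0.19, from Tlr4 (-1.32 ± 0.63) and Tlr7 (-0.91 ± 0.64) to Rela and Irak2. The complement list had 22 of 29 negative and a median of -0.69, from Cd55 and Cfd (-1.82 ± 1.39), the complement factor D gene, to Clu (0.37 ± 0.41) and C1qbp (0.42 ± 0.40).

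Stromal and tumour cell lists gave no gene that passed either. The endothelial list had 16 of 18 negative and a median of -0.40, from Cd34 and the angiopoietin receptor gene Tek (-1.33 ± 0.72) to Icam1 (0.30 ± 0.51) and Eng (0.85 ± 0.47), the TGF-beta co-receptor endoglin. The fibroblast and matrix list had 12 of 19 negative and a median of -0.32. It ran from Fap (-1.45 ± 0.71), a fibroblast surface protein, and Thy1 (-1.29 ± 0.52) to Mmp9 (0.68 ± 0.55) and Col4a1. Thy1 is a surface protein not confined to fibroblasts. The epithelial and tumour cell list had 10 of 15 negative and a median of -0.07, from Epcam (-1.12 ± 1.19) and Egfr (-0.70 ± 0.67) to Trp53 (0.51 ± 0.32) and Myc. The apoptosis list had 14 of 21 negative and a median of -0.12, from Fasl and Pycard (-1.06 ± 0.66) to Trp53 and Tnfrsf10b (0.64 ± 0.35). Pycard was, like Fasl, at or under the negative probes in 2 hypoxic tumours.

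Leaving out 1 hypoxic tumour moved the median of 23 of the 25 lists by over 1.5 times or turned its sign, the MHC class II and complement lists being the exceptions. Without hypoxic 12, 22 or 55 the regulatory T cell median was -0.33, -1.41 or -0.56, and the T cell attracting chemokine median -0.70, -1.29 or -1.30. The NK cell median was then -0.36, -1.53 or -0.67, and the B cell median -0.20, -1.32 or -0.46. The signs also depend on what the tumours are scaled to. After centring every tumour on its median gene, 13 of the 25 list medians were negative. The T cell attracting chemokine (-0.82), regulatory T cell (-0.49), MHC class II (-0.47) and T cell (-0.27) lists kept their sign. The checkpoint (0.01), endothelial (0.03), MHC class I (0.31) and hypoxia (0.34) lists turned. On that scale 33 genes were lower and 43 higher at an unadjusted p under 0.05, and 0 passed after adjustment (limma).

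The hypoxic tumours were on average no nearer to each other than to the normoxic ones. The root mean square log2 distance between tumours averaged 1.31 over the 3 hypoxic pairs, 1.26 over the 15 mixed pairs and 1.19 over the 10 normoxic pairs. Hypoxic 55 was nearest to normoxic 17 (0.511), the closest pair of all 28, and hypoxic 12 was also nearest to normoxic 17 (0.808). Hypoxic 22 was nearest to normoxic 38 (1.04). The first principal component held 54.6% of the variance and the second 20.2%, and 81.9% of genes had loadings of one sign on the first. On it hypoxic 12, 22 and 55 lay at -26.0, 10.4 and -14.1, against -6.41, -15.5, 22.8, 17.6 and 11.2 for normoxic 4, 17, 38, 65 and 71.

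**Figure D3:**
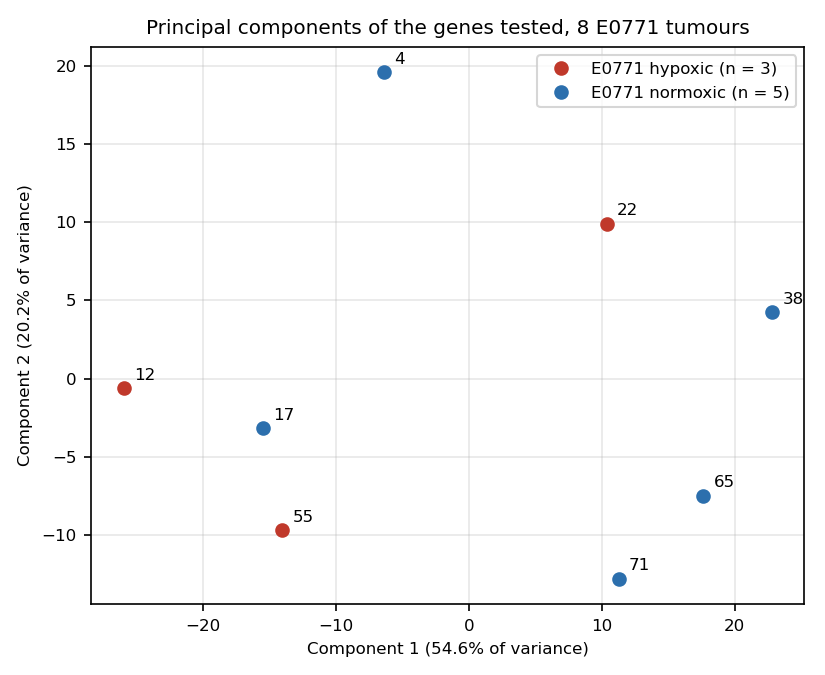
Position of the 8 E0771 tumours, labelled by mouse number, on the first (54.6% of variance) and second (20.2%) principal component of 712 genes. Hypoxic 12 and 55 lie with normoxic 17 on the left, and hypoxic 22 lies on the side of normoxic 38, 65 and 71.

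The plot of components can be set beside the levels of gene lists. The median log2 level of all genes, relative to the normoxic mean, was -0.79, 0.27 and -0.51 in hypoxic 12, 22 and 55, against -0.29, -0.54, 0.43, 0.34 and 0.21 in normoxic 4, 17, 38, 65 and 71. The median log2 level of the T cell list, relative to the normoxic mean, was -1.56, 0.42 and -0.95 in hypoxic 12, 22 and 55, against -1.37, -1.14, 0.85, 1.08 and 0.79 in normoxic 4, 17, 38, 65 and 71. Hypoxic 12 and 55 and normoxic 4 and 17 were low, and hypoxic 22 and normoxic 38, 65 and 71 were high. The MHC class II list was low in hypoxic 22 too, at -0.55, with -1.08 and -0.94 in hypoxic 12 and 55. In normoxic tumours it stood at -0.96, -0.92, 0.59, 0.72 and 0.78, so hypoxic 22 lay between the low and the high ones. The T cell attracting chemokine list had -1.42, -0.42 and -1.04 in the hypoxic tumours, against -1.03, -0.75, 0.71, 0.87 and 0.56 in the normoxic ones. The neutrophil list reached 1.37 in hypoxic 22, its highest value, against -0.65 and -0.73 in hypoxic 12 and 55 and -0.49 to 0.72 in the normoxic tumours. Without hypoxic 22 all 25 list medians were negative (T cell -1.34), without hypoxic 12 there were 19 (T cell -0.45), and without hypoxic 55 there were 23 (T cell -0.63).

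**Figure D4:**
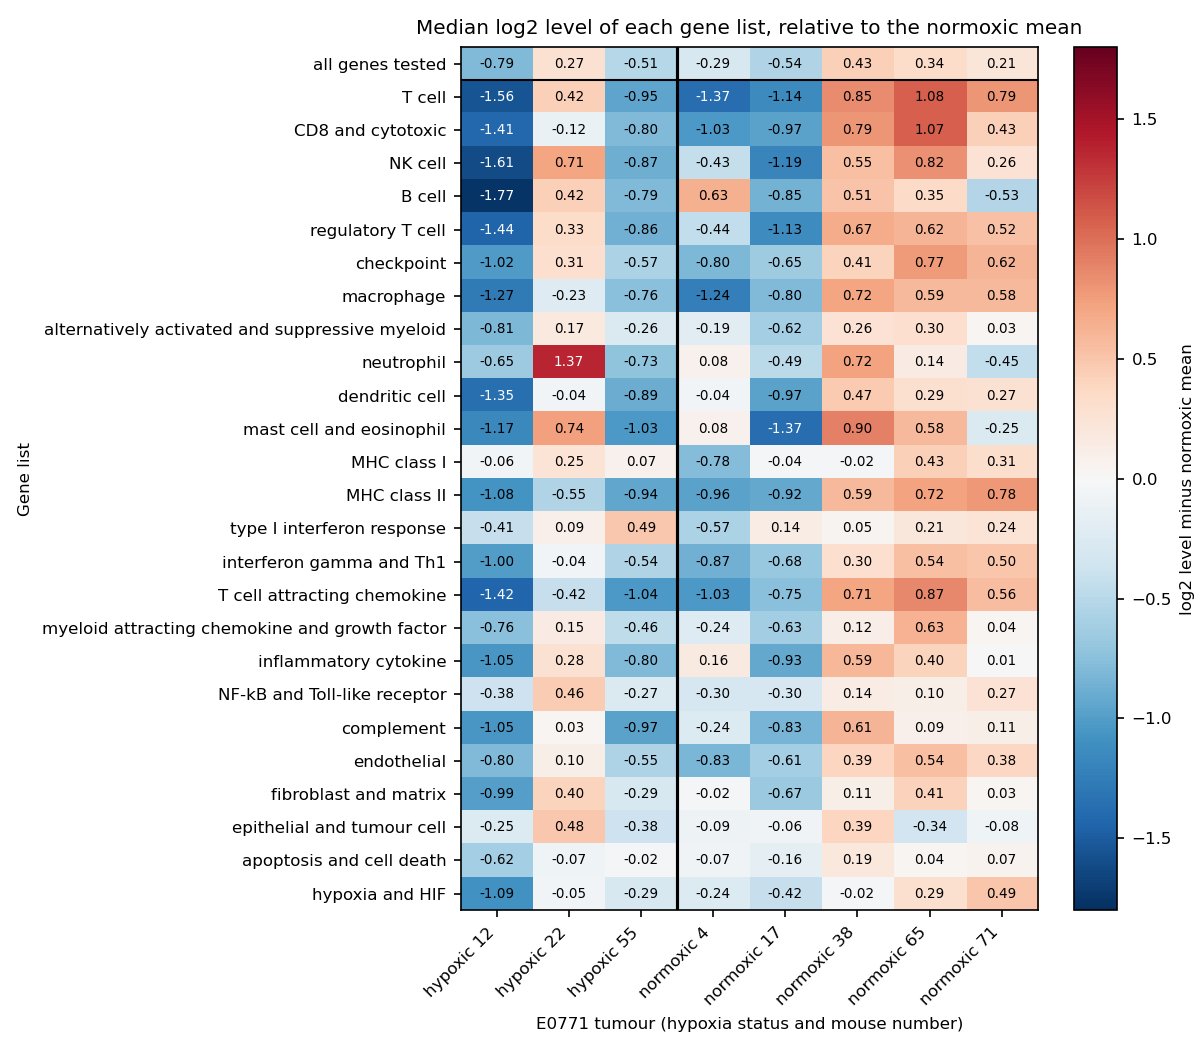
Median log2 level of all genes tested (top row) and of 25 gene lists in each E0771 tumour, minus the mean of the normoxic tumours, with hypoxic tumours left of the vertical line. Hypoxic 12 and 55 and normoxic 4 and 17 are blue in most rows, and the T cell row runs from -1.56 in hypoxic 12 to 1.08 in normoxic 65.

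The map of list levels can be set beside sums of defining markers. The leukocyte genes Ptprc, Cd53 and Cd48 summed to 296, 1232 and 824 in hypoxic 12, 22 and 55, against 672, 551, 2552, 2819 and 2316 in the normoxic tumours. The 5 T cell markers (Cd3d, Cd3e, Cd3g, Cd2 and Cd5) summed to 182 to 746 in hypoxic tumours, against 222 to 3008 in normoxic ones. The 5 macrophage markers summed to 2933 to 5833 in hypoxic tumours, against 3638 to 11646 in normoxic ones, and the 3 NK cell markers to 116 to 778, against 246 to 2076. The 3 neutrophil markers summed to 123 to 1211 in hypoxic tumours, against 133 to 645 in normoxic ones. The 5 genes taken as fibroblast markers (Col1a1, Col3a1, Pdgfrb, Fap and Thy1) summed to 3143, 37908 and 3827 in hypoxic 12, 22 and 55, against 4601 to 22932 in normoxic tumours. The groups overlapped in every one of these sums, and leukocyte content was not tested as a part of the gene differences.

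The label of breast carcinoma was checked on the epithelial genes Epcam, Cdh1 and Muc1. They summed to 34.2, 338 and 37.0 in hypoxic 12, 22 and 55, against 84.0, 36.3, 1256, 50.4 and 45.8 in normoxic 4, 17, 38, 65 and 71. The highest sums were in hypoxic 22 and normoxic 38. Epcam was at or under the negative probes in 2 of 3 hypoxic and 1 of 5 normoxic tumours, and Muc1 in 1 of 3 and 3 of 5. A gene at that level cannot check the label. The keratin markers Krt8 and Krt18 were not analysed here.

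The most variable genes show what set single tumours apart. Among the 3 hypoxic tumours, the 10 genes of largest spread were S100a8, Epcam, Cfd, Defb1, Ptgs2, Col1a1, Cxcl2, Il1rl2, C8b and Col3a1, and of the 3 each was highest in hypoxic 22. Ptgs2, the inducible cyclooxygenase gene, stood at 18.2, 817 and 74.8 in hypoxic tumours, against 95.3, 38.1, 97.9, 71.7 and 157 in normoxic ones. The fibrillar collagen gene Col1a1 stood at 1140.3, 17787 and 1065 in hypoxic tumours, against 2057, 1381, 4982, 7893 and 4516 in normoxic ones. Among the 5 normoxic tumours, Cxcl9, Gzmk, Epcam, Cfd, Cdh1, Sh2d1a, Defb1, Cxcl14, Cxcr6 and Cd3g varied most. Gzmk, a granzyme gene of memory T cells, stood at 13.7, 201 and 100.2 in hypoxic tumours, against 7.58, 27.2, 355, 799 and 441 in normoxic ones. Cxcr6, a homing receptor gene of resident T cells, stood at 43.3, 345 and 196 in hypoxic tumours, against 50.5, 175, 1039.8, 998 and 902 in normoxic ones. In both genes normoxic 38, 65 and 71 were the highest of all 8 tumours. Gzmk was at or under the negative probes in 1 hypoxic tumour.

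The difference in E0771 was set against that in MC38, with its 4 hypoxic and 4 normoxic tumours. Mouse numbers 4, 12 and 17 occur in both lines. Whether they stand for the same animals is not stated in the labels used here, and the test took all tumours as independent. No gene passed the test of the difference between the lines (0 of 712, 0%, smallest adjusted p = 0.205, limma), although 119 did with array quality weights. At an unadjusted p under 0.05 there were 133 genes (18.7%), and in all 133 the E0771 difference was the higher one. Genes were tested on their mean over both lines, so a gene low in E0771 could enter through its MC38 level. With the filter on the E0771 mean instead, 83 of 637 genes stood at that p, and 0 passed. Over all 712 genes the median of the E0771 difference minus the MC38 difference was 0.76 log2 units, and 84.3% of genes were positive. Under scaling by positive-control probes this median turned to -0.55, with 66.2% of genes negative and 13 genes at an unadjusted p under 0.05. Centred on each tumour's median gene the median was 0.06, and 80 genes were higher and 13 lower at an unadjusted p under 0.05.

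The 10 genes of smallest p in this test had negative differences in MC38 and differences of 0.02 to 0.93 in E0771. Nod2, a sensor of bacterial cell walls, was at 0.41 ± 0.48 in E0771 and -1.99 ± 0.47 in MC38, which differ by 2.40 ± 0.67. Its levels in E0771 were 70.7, 119.7 and 49.4 in hypoxic tumours, against 51.1, 53.6, 60.4, 66.4 and 51.1 in normoxic ones. Irak2 was at 0.93 ± 0.48 in E0771 and -1.42 ± 0.46 in MC38, which differ by 2.35 ± 0.67, and Igf1r at 0.88 ± 0.39 and -0.90 ± 0.38. The small heat shock protein gene Hspb2 differed between lines by 3.20 ± 0.93, the sialyltransferase gene St6gal1 by 2.58 ± 0.75, and the pericyte receptor gene Pdgfrb by 2.21 ± 0.65. St6gal1 varied little among E0771 tumours, at 221, 253 and 217 in hypoxic ones, against 199, 254, 193, 196 and 225 in normoxic ones. Card9 (3.40 ± 1.0), which relays signals of fungal sensors, the protease-activated receptor gene F2rl1 (3.02 ± 0.93), Il9 (3.01 ± 0.88) and Cxcr1 (3.92 ± 1.16) were the others. Il9 and Cxcr1 were at or under the negative probes in 2 of 3 hypoxic E0771 tumours, and in 2 and 3 of the 5 normoxic ones.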

How the data were processed

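The authors deposited 1 table of 784 probes (770 genes, 8 negative and 6 positive controls) for 16 mouse tumours. The values are a linear, normalized signal. Which software and steps the authors used is not given in the sources used here. In the deposited signal the 20 housekeeping genes had a geometric mean of 780 in every tumour. Of the values above 1, 100% were whole multiples of the tumour's own factor, to within 0.1 of it. Values of exactly 1, held by up to 9 genes in a tumour, were left out of that share. Dividing by the tumour's factor gave estimated counts, used only to describe depth and in alternatives. Levels are therefore relative to the housekeeping genes, and background had not been subtracted. Control probes were not scaled by the authors and were multiplied by the factor here.

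Genes with a mean over the 16 tumours of at least 24.0 (mean plus 2 SD of the scaled negative probes) entered as log2(value + 1). This scale understates differences of low genes. A model of the 4 group means over all 16 tumours was fitted with limma 3.58.1 under R 4.3.3 (lmFit and trended eBayes), with Benjamini-Hochberg adjustment over 712 genes and a threshold of 0.05. Single library values were compared by exact permutation. The fit was tested on simulated data.

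Probe names were matched to RefSeq genes (GRCm38.p6), 756 through the symbol and 7 through a synonym, with 7 left as in the table. Named genes are the 12 of smallest p in each direction, 25 genes of general interest, both ends of each of 25 lists, the 10 of smallest p between lines, the 10 most variable in each group, the cell markers, and those whose groups did not overlap. 1 of the 12 higher genes is not reported here. The rest of the hypoxia list and Cd79a were named after their values were seen. The members, lists and markers were chosen with earlier results of these data known. Each tumour came from 1 mouse. Nothing used here states the cartridge, run date or RNA input.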

Additional observations from a re-analysis of the deposited data

Results flagged for a closer look

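In 60 genes and 4 library measures, each normoxic group of 5 tumours was examined for a tumour far from the others by Dixon's test. Ccr7 stood at 89.9 in normoxic 17, against 236 to 248 in the other 4 normoxic tumours. The scaled mean of the negative probes was 15.6 in normoxic 65, against 3.71 to 6.58 in the other 4. Chance alone flags about 1 in 20 groups, and over all genes tested 20 were flagged in this way (2.81%).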

How the results depend on the processing

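The count of genes that passed between hypoxic and normoxic tumours was 127, all lower, when the estimated counts were scaled on the positive-control probes. That scale keeps the difference in total counts between tumours, and the median of all genes was then -1.51. With array quality weights 43 genes passed, all lower, and 119 passed for the difference between lines. The estimation of these weights stopped before it converged, and the cause of the calls was not tested. Leaving out 1 tumour gave counts of 0 to 1 and, for the median, -0.71 to -0.13, and for the difference between lines 0 in every fit. All other alternatives that were fitted gave 0: for both counts, centring on the median gene, scaling on the total, background subtraction, other filters, a pseudocount of 10, eBayes without trend or robust, an adjusted p under 0.10, leaving out the tumours under 350000 counts (1 hypoxic tumour is then left, assumed to vary like the other groups) and, added after seeing the data, voom weights, and for the E0771 count a fit of E0771 tumours alone. Under positive-control scaling the median of the difference between lines turned from 0.76 to -0.55. The 12 lower genes of smallest p kept their sign in all 23 alternatives. The 11 higher ones kept it in all but positive-control scaling, which lowers nearly every gene. Other filters, other eBayes settings, the fit of E0771 tumours alone and the threshold of 0.10 leave each log2 difference as it is. These alternatives could not change a sign. The genes were also picked for their p in these same tumours. Without the tumours under 350000 counts Spp1 moved from -1.13 to -0.20 and Fcgr3 from -2.32 to -0.73. Cd34 then stood at -1.79 and Cmah at -2.41. The planned count model was not run, since it was allowed only where whole reads follow from a column's lowest values alone, which was not so in most tumours; the factor used here was fitted on more values. No paired analysis was possible because the groups compared share no mouse number within the line.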
